A study of Mus musculus with 6 samples.

Results

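The comparison sets 1 single-nucleus multiome library of mouse retina given WIF1 (WIF1-4w, of the group labelled 4 weeks AVI) against 1 library of untreated retina. In such a library every nucleus yields its RNA together with its accessible DNA (ATAC). Its members were the barcodes with at least 500 RNA counts (unique molecular identifiers, UMIs) and at most 10% of UMIs from mitochondrial genes. These were 9637 nuclei of the WIF1 4-week library and 7683 of the control, 17320 of the 27225 such nuclei in all 3 libraries. The other 9905 came from the WIF1 2-week library, whose values stand beside the rest to show which differences had been there before.

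Every mouse was C57BL/6J, with no age in the labels. The control carries the label naïve, and both WIF1 groups were labelled AAV2/2, an adeno-associated virus serotype that carries genes into retinal cells. A pair of Wif1 vectors is named, CMV-Wif1-HA and CMV-Wif1-HA-IRES-GFP, both under the CMV promoter, which acts in many cell types, and which one these eyes received is not stated. A control vector, CMV-IRES-GFP, is named too, but this control was naïve, so injection, vector and WIF1 cannot be told apart. Each group had 2 eyes, with no word on pooling, and AVI is not spelled out. Tissue was dissociated with papain and nuclei were released by lysis.

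WIF1 (Wnt inhibitory factor) works outside the cell, where it traps Wnt proteins before they meet their Frizzled and LRP receptors. In the retina, photoreceptors (rods and cones) signal to bipolar cells, amacrine and horizontal cells shape that signal, and ganglion cells send it to the brain. Müller glia span the tissue, recycle transmitter, buffer ions and turn on a reactive programme after injury. When interferons reach retinal cells, they raise MHC class I molecules and the proteasome and transporter genes that load them, and the question here was which differences from the control remained, or were new, once those immune genes had come back near the control level.

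Each condition had 1 library and therefore no replicate. All values describe these libraries, no difference was tested, and the 95% intervals cover counting error alone. Member nuclei held 19833787 RNA UMIs in the control and 19280951 at 4 weeks, with medians of 1779 and 1256 per nucleus, and 34566871 and 68096123 ATAC counts, with medians of 3338 and 5679. The median mitochondrial share per nucleus, 1.98% in untreated retina, was 0.559% and 0.640% after 2 and 4 weeks. Control and 4-week members shared 124 barcodes, 1.61% of the smaller set. Wif1 UMIs over all kept nuclei numbered 1 (control), 13 (2 weeks) and 37 (4 weeks), the direction that the labels state. After called doublets were left out, clusters were named from marker genes with the ending "-like", since no authors' annotation was used.

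Amacrine-like nuclei were the class whose share differed most from the control among those with at least 50 nuclei in both libraries. They were 6.24% of 7144 named nuclei in the control (446 nuclei), 2.46% of 9114 at 2 weeks and 1.34% of 8865 at 4 weeks (119 nuclei), a 4-week to control ratio of 0.215 (0.174 to 0.264). Müller-like nuclei were 1.72%, 3.03% and 2.59%, a ratio of 1.51 (1.21 to 1.89). Rod-like nuclei were 61.0%, 68.9% and 70.8%, a ratio of 1.16, and bipolar-like nuclei 23.4% in the control and 18.7% at 4 weeks, a ratio of 0.797. Cone-like shares were close, at 5.49% and 5.21%. A share is relative: with rods left out of the total, the bipolar-like ratio was 1.06, the cone-like 1.27, the amacrine-like 0.287 and the Müller-like 2.01. Naming each nucleus by its highest marker score gave 0.538 for amacrine-like nuclei.

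The 4-week shares of immune cells lay near the control but rest on few nuclei. Microglia- or macrophage-like nuclei were 0.210%, 0.812% and 0.169% of named nuclei (control, then both times), and lymphocyte-like nuclei numbered 0, 24 and 0. The microglia- or macrophage-like shares came from 15, 74 and 15 nuclei, with a wide interval on the 4-week ratio of 0.806 (0.367 to 1.77). Horizontal-like nuclei, the lateral interneurons of the outer retina, numbered 25, 19 and 0, where a count of 0 allows a share of up to 0.0338% at 4 weeks. By highest marker score the horizontal-like share had a ratio of 1.03, so this absence depends on how nuclei were named. Retinal ganglion-like nuclei numbered 8, 0 and 1, too few for a comparison.

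**Figure D1:**
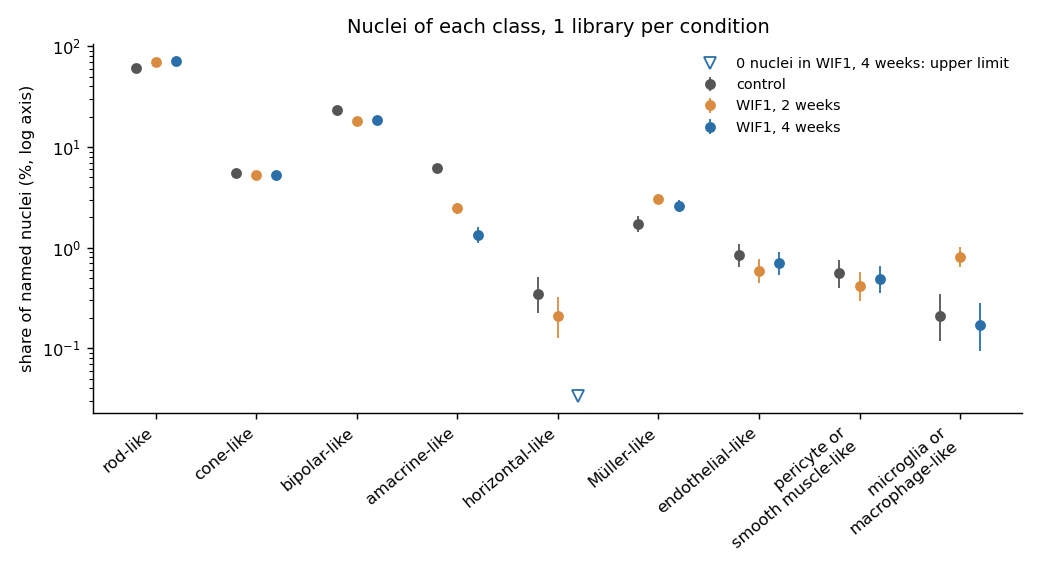
Share of named nuclei (percent, logarithmic axis) of 9 classes in the control, WIF1 2-week and WIF1 4-week libraries, with Clopper-Pearson 95% intervals and an open triangle for the upper limit where no nucleus was found. The amacrine-like share steps from 6.24% to 2.46% to 1.34%, while the microglia-like share goes from 0.210% to 0.812% and back to 0.169%.

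Marker transcripts were also summed over all kept nuclei, which needs no class names. Of 17 amacrine markers 15 were lower at 4 weeks, with a ratio of sums of 0.730, while Meis2 (1.32) and Nfia (1.06) were higher. Bipolar markers had a ratio of sums of 0.968, with 7 of 16 higher. The genes named next were picked from among the low amacrine markers. Levels are CPM, that is UMIs scaled to a common library total, given for the control, 2 weeks and 4 weeks in that order. Gad1, the enzyme that makes the inhibitory transmitter GABA, was at 22.8, 7.97 and 2.81 CPM, a 4-week ratio of 0.124 (0.0894 to 0.168). Gad2, its second form, had a ratio of 0.188, Slc32a1, which loads GABA and glycine into vesicles, 0.244, and Tfap2b, a transcription factor of amacrine and horizontal cells, 0.177. All of these were below the control already at 2 weeks and lower again at 4 weeks. Slc6a9, the glycine transporter, was closer to the control than these, at 111.6, 105.8 and 86.4 CPM, a ratio of 0.774.

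Most markers of horizontal and ganglion cells were lower too. Of 12 horizontal markers 11 were lower, with a ratio of sums of 0.590 and Ndrg1 higher (1.08), and of 16 ganglion cell markers 14 were lower, with a ratio of sums of 0.450 and Isl2 (1.26) and Atoh7 (1.03) higher. The lowest are named here, and Prox1, of horizontal and other cells, stood at 0.833. Calb1, a calcium-binding protein of horizontal and some amacrine cells, had 1133, 225 and 52 UMIs, a ratio of 0.0481 (0.0357 to 0.0635). Lhx1, which marks horizontal cells, had 132, 68 and 2 UMIs, and Onecut1, of the same cells, had a 4-week ratio of 0.197 against a 2-week level above the control (11.6, 14.1 and 2.28 CPM). Nefl, the light neurofilament of ganglion cell axons, had 580, 15 and 17 UMIs, and its partner Nefm a ratio of 0.0356. Sncg had a ratio of 0.0866, Slc17a6, the glutamate loader of ganglion cells, 0.153, and Pou4f1, a ganglion cell factor, 47, 2 and 2 UMIs. Nefl and Pou4f1 were therefore about as low at 2 weeks as at 4 weeks, whereas Calb1 and Lhx1 were lower again at 4 weeks. Summed markers were 2036, 4197 and 3325 CPM for Müller glia and 115.5, 483.1 and 116.4 CPM for microglia or macrophages. Fewer cells of a type and less RNA per cell cannot be told apart from these sums.

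The amacrine-like clusters had unequal ratios. The cluster marked by the transcription factor Ebf3 held 99, 88 and 43 nuclei, a share ratio of 0.350 (0.239 to 0.506) at 4 weeks, and the cluster marked by Nrg1 and the gap junction gene Gjd2 held 117, 94 and 56, a ratio of 0.386 (0.275 to 0.535). The other 12 sub-clusters together held 230, 42 and 20, a ratio of 0.0701 (0.0420 to 0.111). The interval of the remainder does not overlap those of the first 2 clusters. Both of these carry Slc6a9, but so do some sub-clusters of the remainder, such as those with 26, 1 and 0 and with 19, 0 and 0 nuclei. Slc6a9 therefore does not separate the less reduced clusters from the rest. The mix of amacrine-like nuclei compared between the libraries was therefore not the same.

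RNA was next summed over the nuclei of each class, and a gene was called when its ratio of CPM was at least 2-fold with at least 30 UMIs in the library with the higher CPM. In rod-like nuclei 0.34% of 10870 genes were called higher and 0.598% lower at 4 weeks. The shares were 1.05% and 1.14% in cone-like, 0.211% and 0.927% in bipolar-like, 0.423% and 11.9% in amacrine-like, 3.12% and 2.76% in Müller-like and 5.78% and 2.24% in endothelial-like nuclei. In classes of unequal depth 30 UMIs stand for unequal levels, for instance 13.1 CPM in the control but 63.8 CPM at 4 weeks in amacrine-like nuclei. Where a gene reached 100 CPM on its higher side, 0 of 2250 were called higher in rods, 0 of 2426 in cones and 0 of 2260 in bipolar cells, against 12, 6 and 5 called lower. On that footing amacrine-like nuclei had 10 higher and 121 lower of 2532, and Müller-like nuclei 20 and 92 of 2504.

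Antigen presentation and interferon genes were near the control level at 4 weeks in most neurons. B2m, the shared light chain of MHC class I, was at 5.11, 97.9 and 4.91 CPM in bipolar-like nuclei, a 4-week ratio of 0.961 (0.561 to 1.63), and at 1.59, 109.3 and 3.71 CPM in cone-like nuclei, from 2 and 5 UMIs in the outer libraries. H2-K1, a class I heavy chain, was at 18.5, 239.5 and 17.02 CPM in bipolar-like nuclei and at 3.60, 24.7 and 2.67 CPM in rod-like nuclei. Its 4-week values lay at or below the control in both. Rod-like B2m lay between the control and 2 weeks, as the cone-like value did, at 4.97, 35.6 and 7.75 CPM, a ratio of 1.56 (0.982 to 2.53) from 29 and 58 UMIs. Over all kept nuclei, whose mix of classes differed, B2m was at 36.8, 276.3 and 45.3 CPM, a ratio of 1.23 (1.105 to 1.367).

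The list of MHC class I and peptide loading genes had a median log2 ratio of −0.21 in rod-like nuclei at 4 weeks, with 0 of 18 measured members called in either direction, where 2.49% of all genes under the same rule (10 UMIs) were at least 2-fold higher and 2.77% lower. The median over all genes was 0.03. The list stood at −0.06 in bipolar-like nuclei and −0.10 in cone-like nuclei (8 of 13 lower, against 46.6% of all genes), where 2-week medians had been 0.64 and 0.32. Interferon-induced genes had medians of −0.05 in rod-like and −0.04 in bipolar-like nuclei, against 0.45 and 1.124 at 2 weeks. In amacrine-like nuclei the same list stood at 0.52 at 4 weeks, from 9 measured genes of which 8 were higher, where 52.5% of all genes were higher. Counts under 3 UMIs were set to 3, so low genes can read as higher in the shallower library. This class held 2288059 UMIs in the control and 470222 at 4 weeks. Within the Ebf3 and Nrg1 clusters the list stood at 0.08 (2 genes) and −0.03 (4 genes). Its starts in amacrine-like nuclei had a median of −0.79 (17 genes), against −0.08 over all starts.

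The 2-week and 4-week ratios share the control library, so they are given side by side without a measure of their likeness. Immunoglobulin transcripts summed to 25.5, 1628 and 37.3 CPM in rod-like nuclei, and their origin was not tested. Endothelial-like nuclei, 60 in the control and 62 at 4 weeks, were below the control in H2-K1, at 917, 1623 and 407 CPM, a ratio of 0.444 (0.324 to 0.603), and in the interferon gene Ifit1, a ratio of 0.420 from 45 and 20 UMIs.

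**Figure D2:**
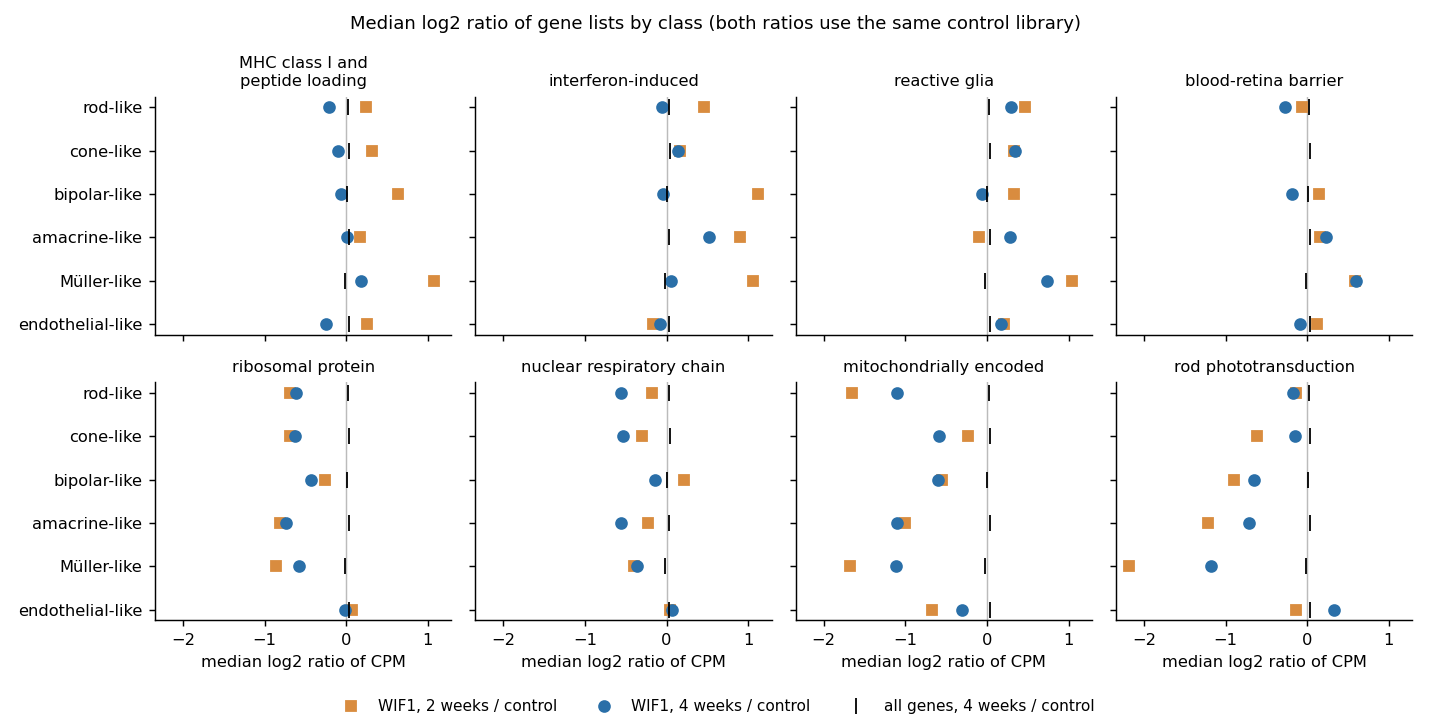
Median log2 ratio of CPM to control for 8 gene lists in 6 classes, at 2 weeks (squares) and 4 weeks (circles), with a tick for the median of all genes at 4 weeks; both ratios use the same control library. MHC class I and interferon medians sit at or slightly left of the tick at 4 weeks in rods and bipolar cells, while ribosomal protein and mitochondrially encoded medians lie left of it in every class, by least for ribosomal proteins in the endothelial-like one (−0.02 against 0.04).

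Müller-like nuclei (123, 276 and 230) were above the control in reactive-glia genes at both times. Reactive-glia genes had a median log2 ratio of 0.74 at 4 weeks, with 21 of 26 measured members higher and 9 at least 2-fold higher, where 49.5% of all genes were higher and 4.52% at least 2-fold. Their summed level was 3227, 5792 and 5402 CPM. MHC class I genes, whose 2-week median had been 1.08, stood at 0.19 (20 measured genes), and interferon genes at 0.05 (38 genes) after 1.06. This class held 406235 UMIs in the control and 822434 at 4 weeks. With counts under 3 UMIs set to 3, low genes can therefore read as lower at 4 weeks. The median over all genes of this class was −0.02.

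Much of the reactive-glia difference sat in a handful of nuclei. Lcn2, an iron-carrier-binding lipocalin of reactive glia, had 5, 212 and 351 UMIs (12.3, 306.8 and 426.8 CPM), a 4-week ratio of 34.7 (14.7 to 108). The 351 UMIs came from 12 nuclei, and 5 of them held 89.5%. With each nucleus thinned to 500 UMIs, Lcn2 was seen in 1.63%, 4.35% and 3.04% of Müller-like nuclei, against 0.138%, 0.366% and 0.112% of rod-like nuclei, whose median depths were 1162, 701 and 1025 UMIs against 3420, 2406 and 3322. The Müller-like intervals overlapped, at 0.198% to 5.75% in the control and 1.23% to 6.17% at 4 weeks. Thinned cone-like nuclei gave 1.28%, 0.417% and 0.433%, so the control share there was close to the Müller-like one. Ccl2, a chemokine that draws monocytes, had 0, 43 and 149 UMIs, the last in 2 nuclei, and Cxcl10, an interferon-induced chemokine, had 19, 58 and 97 UMIs, from 1 nucleus each in the control and at 4 weeks.

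A sub-cluster led by Ccl2, Lcn2 and Cxcl10 held 3, 51 and 11 nuclei and most of these UMIs at 4 weeks. Without it the Lcn2 ratio was 12.1, from 4 and 97 UMIs, and the reactive-glia median was 0.23, with 11 of 20 members higher. The interferon median without it was 0.57 (25 of 30 higher) and the MHC class I median 0.39 (16 of 17 higher), both above the values with it. Those values rested on 38 and 20 measured genes, so the gene sets differ as well. The setting leaves out 3 control and 11 4-week nuclei together. The interferon median of Müller-like nuclei at 4 weeks thus depends on these few nuclei and on which genes reach 10 UMIs. Slc7a11, the cystine importer, had a ratio of 4.199 with the sub-cluster and 1.44 without, and Cebpb, an acute-phase transcription factor, 2.20 and 0.750.

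A second group of genes was spread over many nuclei and did not hang on the sub-cluster. C4b, complement component 4, had 6, 86 and 47 UMIs (14.8, 124.4 and 57.1 CPM), a 4-week ratio of 3.87 (1.65 to 11.1) from 31 nuclei, and 2.83 without the sub-cluster. Serping1, the C1 inhibitor that restrains complement, had 21, 271 and 94 UMIs, a ratio of 2.21 (1.37 to 3.74) from 57 nuclei, and 2.13 without. Both were lower at 4 weeks than at 2 weeks and higher than in the control. Mt3, a metal-binding metallothionein, had 8, 58 and 39 UMIs, a ratio of 2.41 (1.11 to 5.97). It fell under 30 UMIs without the sub-cluster, and also without the 5 nuclei with most of its UMIs. Mt3 therefore cannot be placed in this group.

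Ccn2, a matrix protein and target of YAP signalling, ran the other way in time, at 169.9, 195.3 and 341.7 CPM from 69, 135 and 281 UMIs, a ratio of 2.01 (1.54 to 2.66) from 78 nuclei and 2.12 without the sub-cluster. Cp, the ferroxidase ceruloplasmin, was at 1647, 2736 and 2701 CPM, a ratio of 1.64, with no step back between 2 and 4 weeks. Gfap, the filament of reactive glia, was at 24.6, 66.6 and 42.6 CPM, a ratio of 1.73 from few UMIs, and Clu, a secreted chaperone, at 4049, 10550 and 5284 CPM, a ratio of 1.31. Stat3, which carries the cytokine signal of reactive glia, was at 98, 210 and 95 CPM, within 5% of the control.

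Itprid2 (6, 20 and 47 UMIs), the potassium channel gene Kcna2 (6, 23 and 46), 2610307P16Rik (6, 59 and 44) and Tmem189 (6, 36 and 42) were also among the 8 highest genes, with 4-week ratios between 3.46 and 3.87, each from 35 to 40 nuclei. All of these rest on 6 UMIs in the control, and their intervals start between 1.46 and 1.65. The 8 lowest genes included Nxph1 (31, 2 and 11 UMIs), Arhgap24 (37, 11 and 15) and Frmpd2 (45, 4 and 22), with ratios of 0.175, 0.200 and 0.241. Rod marker genes in Müller-like nuclei summed to 11555, 2503 and 4580 CPM, with all 15 lower at 4 weeks and none at 0. Microglia or macrophage markers summed to 71.4, 117.2 and 119.2 CPM there, with 11, 7 and 6 of 16 at 0, and Müller markers to 29613, 36527 and 36086 CPM. The part of rod or microglial RNA in these differences was not tested.

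The Müller lists named next lay nearer the control than the reactive-glia median of all nuclei. Rod phototransduction (−1.17), cone phototransduction (−1.21) and mitochondrially encoded genes (−1.11) lay further from it. Blood-retina barrier genes had a median of 0.59 with 9 of 10 measured members higher (49.5% of all genes in this class were), the same height as at 2 weeks (0.58), and matrix and growth factor genes 0.31 with 16 of 20 higher. Without the sub-cluster led by Ccl2, Lcn2 and Cxcl10 the barrier median was 0.62, above the reactive-glia median of 0.23. Cholesterol and fatty acid synthesis genes, at −1.15 at 2 weeks, stood at −0.13. Genes of glial housekeeping such as glutamate and potassium handling had a median of 0.17. Wnt ligands, receptors and inhibitors had a median of 0.22, with 13 of 19 higher, among them Wnt5b, a non-canonical ligand (7, 24 and 34 UMIs, a ratio of 2.40, 1.05 to 6.41). Wnt5b fell under 30 UMIs without that sub-cluster, and also without the 5 nuclei with most of its UMIs. Tcf7l2, a partner of beta-catenin, had a Müller-like ratio of 1.09 and the E protein gene Tcf4 1.24.

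**Figure D3:**
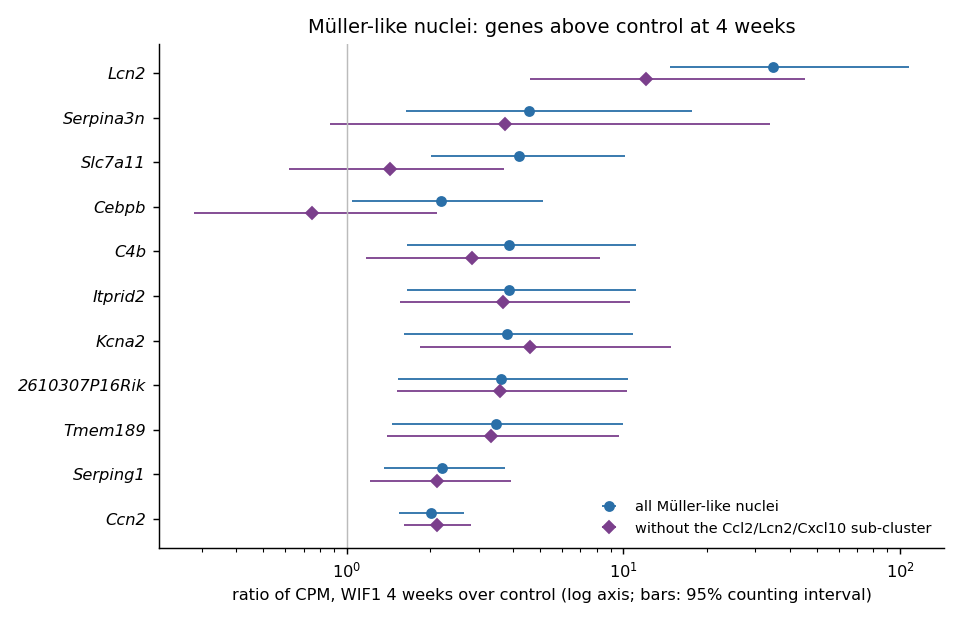
Ratio of CPM at 4 weeks over control (logarithmic axis, 95% counting intervals) for 11 genes of Müller-like nuclei, with all nuclei (circles) and without the sub-cluster led by Ccl2, Lcn2 and Cxcl10 (diamonds). Lcn2 goes from 34.7 to 12.1 and Cebpb from 2.20 to 0.750, while Serping1 and Ccn2 stay at 2.13 and 2.12.

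Rod-like nuclei differed from the control by small amounts at most genes. The highest among genes of at least 50 CPM was Antxr2, a receptor for collagen and anthrax toxin, with 263, 965 and 702 UMIs (45.1, 195.0 and 93.8 CPM), a ratio of 2.08 (1.80 to 2.41) from 513 nuclei. In nuclei thinned to 500 UMIs it was seen in 1.93%, 8.25% and 4.08% of rod-like nuclei, while bipolar-like nuclei, which also carry the gene, gave 9.37%, 7.79% and 8.33%, and Müller-like nuclei 1.63%, 0.725% and 0.435%. The 4-week share of rods thus lay between the control and 2 weeks, while that of bipolar-like nuclei was within 2 percentage points of the control. B3galt1, a glycosyltransferase, was at 36.3, 123.0 and 61.5 CPM (a ratio of 1.69), the mitochondrial iron importer gene Slc25a37 at 41.6, 88.1 and 64.3 CPM (1.54) and Hk2, the hexokinase that photoreceptors rely on for aerobic glycolysis, at 789, 1633 and 1178 CPM (1.49, 1.44 to 1.55). Each of these was higher at 2 weeks than at 4 weeks.

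Rab21, a small GTPase of endosomes, was at the control level at 2 weeks and above it at 4 weeks, at 43.0, 46.7 and 69.3 CPM, a ratio of 1.61 (1.38 to 1.88). It was also among the highest genes of bipolar-like nuclei, at 44.2, 43.5 and 62.8 CPM, a ratio of 1.42 (1.21 to 1.66). Dpp10 (1.52) and 2610035D17Rik (1.52) completed the rod list with Mafg (1.51). Edn2, an endothelin that stressed photoreceptors make, had 11, 221 and 33 UMIs, a ratio of 2.34 (1.15 to 5.13), and 0.0688%, 1.88% and 0.271% of thinned rods against 0 of the thinned bipolar-like nuclei in each library. Rod phototransduction genes had a median of −0.17 and photoreceptor identity factors 0.09.

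The lowest rod genes were Smim40 at 248.8, 114.8 and 119.7 CPM (a ratio of 0.481), the cone phosphodiesterase subunit gene Pde6h (0.488), the translation elongation factors Eef2 (0.522) and Eef1a1 (0.540), the glutathione peroxidase Gpx4 (0.534), Mif (0.544), Ppia (0.548) and Tmsb10 (0.549). All were below the control at 2 weeks as well, and Pde6h, Gpx4, Mif, Ppia and Tmsb10 were lower again at 4 weeks. Gpx4, for one, was at 667, 413 and 357 CPM.

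**Figure D4:**
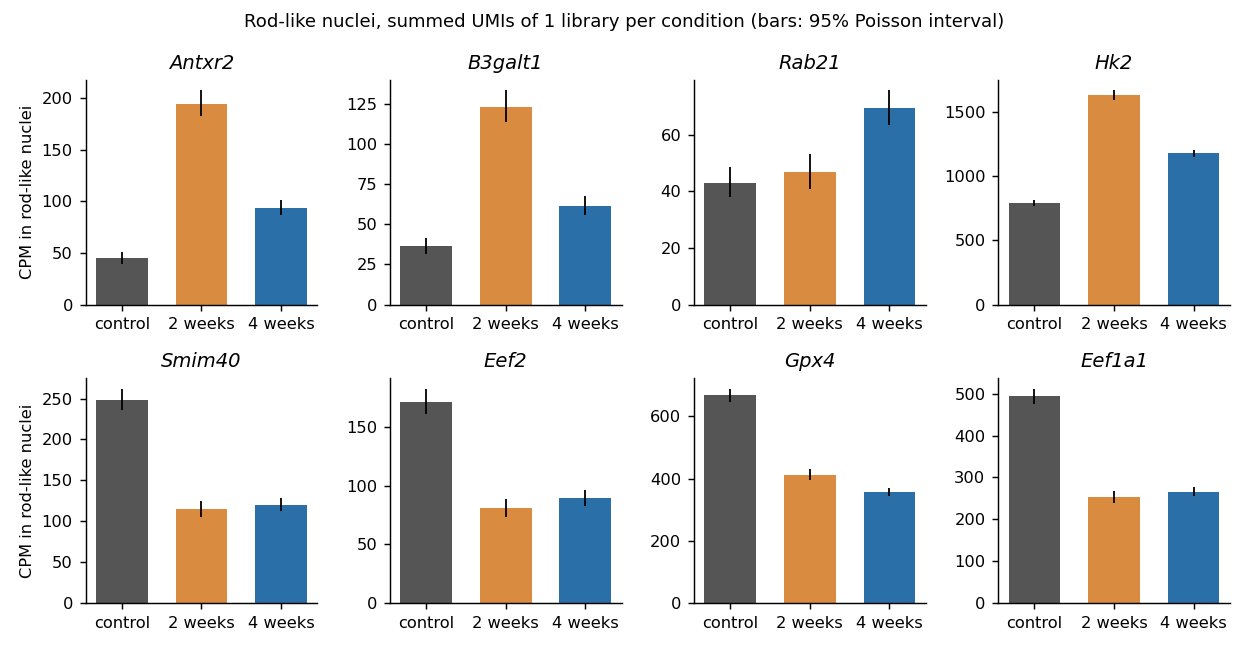
CPM of 4 of the highest and 4 of the lowest genes of rod-like nuclei in the control, 2-week and 4-week libraries, with 95% Poisson intervals. Antxr2, B3galt1 and Hk2 lie between the control and 2 weeks at 4 weeks, Rab21 is higher at 4 weeks alone, and the lower row is below the control at both times.

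Lower levels of translation genes were shared by the neural classes. Ribosomal protein genes, including elongation factor Eef1a1, had a median log2 ratio of −0.62 in rod-like nuclei with 34 of 34 lower (46.5% of all genes were lower), −0.63 in cone-like nuclei with 34 of 34 lower, and −0.43 in bipolar-like nuclei with 33 of 34. Amacrine-like and Müller-like medians were −0.74 and −0.58. Endothelial-like nuclei differed, with −0.02 and 17 of 34 lower, where 48.4% of all genes were. The 2-week medians in the same order were −0.69, −0.69, −0.26, −0.82, −0.86 and 0.07, so the first 5 classes were below 0 at both times.

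Nuclear genes of the respiratory chain were further below the control at 4 weeks than at 2 weeks in rods. Their median was −0.56 at 4 weeks, with 27 of 28 lower, after −0.18 at 2 weeks. In cone-like nuclei it was −0.54 after −0.30, in bipolar-like nuclei −0.14 after 0.21, and in endothelial-like nuclei 0.07 after 0.04. Mitochondrially encoded transcripts had medians of −1.10 in rods (13 of 13 lower), −0.59 in cones, −0.60 in bipolar cells and −0.31 in endothelial-like nuclei. The median mitochondrial share given above was lower at both times too, and rRNA-derived transcripts made up 0.511%, 0.0403% and 0.352% of UMIs. The part of carried-over cytoplasm in these lists was not tested. Start-site chromatin of ribosomal protein genes had medians of −0.05 in rods, −0.02 in bipolar cells and 0.03 in cones.

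Cone-like nuclei (392 and 462) had Rbm45, an RNA-binding protein gene, at 31.8, 67.6 and 77.2 CPM, a ratio of 2.43 (1.67 to 3.59) from 89 nuclei, and the adhesion receptor gene Dcc at 28.6, 37.5 and 69.0 CPM (2.41). Satb1, a chromatin organiser, had a ratio of 2.13, Klhl12 2.01 and Vcl, the vinculin gene, 2.01. The smooth muscle actin gene Acta2 (3, 1 and 70 UMIs) owed its 70 UMIs to 1 nucleus. Among the lowest were Banf1 (0.376), Cetn2, a centrin (0.390), Pfdn2 (0.410) and Tmsb4x at 236.0, 136.3 and 97.98 CPM (0.415). Opsin and cascade genes were little different, with a median of −0.06 over 16 cone phototransduction genes.

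Bipolar-like nuclei (1675 and 1657) had 25 genes called higher of 11864. The highest of at least 50 CPM included 2 genes under the 2-fold call. They were Ccdc85a (1.66, or 1.31 in nuclei thinned to 500 UMIs) and Erbb4, the neuregulin receptor, at 320, 376 and 459 CPM (1.43, 1.35 to 1.52). Also among the highest, AC149090.1 was at 591, 1188 and 840 CPM, higher at 2 weeks than at 4 weeks. Among the lowest were Vtn, vitronectin (0.460), the atypical cadherin Fat4 (62.1, 38.9 and 31.1 CPM) and Ncam2 (0.519). Rods express Vtn as well, and rod phototransduction genes in bipolar-like nuclei had a median of −0.65 with 35 of 35 lower, where 49.6% of all genes were lower. The share of rod RNA in these values was not tested. Cfi, complement factor I, had 34, 55 and 82 UMIs, a ratio of 2.81 (1.87 to 4.33) from 60 nuclei, as high at 4 weeks as at 2 weeks (5.11, 13.9 and 14.4 CPM). Immediate early genes had crossed the control, with a median of −0.25 after 0.62, and Egr1 was at 21.2, 46.5 and 8.25 CPM, a ratio of 0.389 (0.273 to 0.545). ON bipolar cascade genes had a median of 0.14.

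In amacrine-like nuclei the genes called lower, 872 of 7321, included several at 0 of 119 nuclei. Trhde, an ectopeptidase gene, had 321, 1 and 0 UMIs, at least 21.99-fold lower with the 0 set to 3 UMIs over the class, the potassium channel gene Kcnd2 had 292, 48 and 0 and the AMPA receptor regulator gene Shisa9 251, 7 and 0 (at least 17.2-fold). Epha5 had 323, 18 and 3 UMIs and Galntl6 777, 71 and 9. Receptors for inhibitory transmitter were split, with Gabra2 at 177.0, 146.8 and 59.6 CPM and the extrasynaptic subunit Gabrd at 44.6, 52.2 and 91.4 CPM (a ratio of 2.05). Maf was the highest, at 87.9, 137.0 and 299.9 CPM (3.41), and Slc6a9 had a ratio of 1.68.

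These class sums changed with the mix of sub-clusters, so the Ebf3 and Nrg1 clusters were each read alone. In the Ebf3 cluster 11 genes were higher and 251 lower of 2243, and in the Nrg1 cluster 22 and 563 of 3652. These clusters held 407488 and 730587 UMIs in the control, against 135881 and 233292 at 4 weeks. Under the same minimum of UMIs, genes higher at 4 weeks therefore needed a higher CPM to be called than genes lower. The counts alone cannot show which direction was more common. Amacrine identity genes had medians of 0.02 and 0.15 in the Ebf3 and Nrg1 clusters. Mitochondrially encoded genes were at −1.30 and −1.45, ribosomal protein genes at −0.66 and −0.88, and nuclear respiratory genes at −0.59 and −0.94. Slc6a9 within them had ratios of 1.42 and 1.10. Gabra2, low over the whole class, had a ratio of 1.93 (1.004 to 3.61) in the Ebf3 cluster, from 28 and 18 UMIs, and Gabrd 1.17 (0.650 to 2.01) in the Nrg1 cluster. Markers that named these clusters are part of the identity list, so its medians near the control cannot show that identity was kept. Single members ranged from −1.34 to 2.17 in the Ebf3 cluster and from −1.82 to 0.69 in the Nrg1 cluster. The mitochondrial, ribosomal and nuclear respiratory lists were below the control in both clusters, as they were in rods.

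Endothelial-like nuclei gave few usable values. The haemoglobin genes Hbb-bs (615, 2 and 2 UMIs) and Hba-a1 (480, 0 and 1) came from 1 control nucleus. Mgp, a calcification inhibitor of vessel walls, was at 3859, 3101 and 1519 CPM, a ratio of 0.394, and the pericyte gene Rgs5 had 60, 0 and 9 UMIs. Genes of neurons led the higher side (Dlg2, Magi2 and Syt1 at ratios of 34.0, 5.77 and 4.34), with 5 nuclei holding 65.5% to 88.9% of their UMIs. Barrier genes had a median of −0.08 over 19 members.

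Chromatin was compared at gene starts, as CPM of all counts in peaks within 1000 bp of a start. In rod-like nuclei 0.441% of 14298 genes were at least 2-fold higher at 4 weeks and 3.69% lower. This direction depends on the scaling: as counts per nucleus, 2004 starts were higher and 109 lower in rods, and the split turned in cones and bipolar cells as well. The shares were 0.494% and 2.19% in bipolar-like, 0.876% and 1.22% in cone-like, 0.563% and 9.55% in amacrine-like, 4.25% and 1.89% in Müller-like and 6.68% and 3.49% in endothelial-like nuclei. In the endothelial-like nuclei, 20 rod phototransduction starts had a median of 1.61 on the log2 scale, against 0.12 over all starts. The part of rod chromatin in the values of these nuclei was not tested. The peak lists were called separately, with 54429 peaks in the control and 75686 at 4 weeks, so the peaks near a start differ in number and width. Named starts are therefore given over 18435 peak pairs that overlap by at least 50% of each peak, a choice made after seeing the data, where 0.106% of 14159 starts were higher and 3.41% lower in rods and 3.79% and 1.57% of 9818 in Müller-like nuclei. Satellite-like loci such as Gm10800 were low in every neural class (3626, 129.0 and 665.6 CPM in rods), and reads there cannot be assigned to 1 copy. Distal peaks of both lists, 28147 pairs, were lower more often than higher in rods (6.24% against 0.882%) and bipolar cells (4.1% against 0.557%) and higher more often in Müller-like nuclei (21.6% against 1.17%). In Müller-like nuclei only 1968 pairs reached 30 counts on the side with the higher CPM. Distal counts there were 163892 in the control and 308036 at 4 weeks, so peaks higher in the control needed a higher CPM to enter. Distal splits were not repeated as counts per nucleus.

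The start of Cyp2r1, the vitamin D 25-hydroxylase of the endoplasmic reticulum, differed from the control more at 4 weeks than at 2 weeks, and was chosen after its values were seen. Its peak lay at mm10 chr7:114562413-114563319 in the control and chr7:114562363-114563249 at 4 weeks, over the gene's start. Counts were 128, 378 and 22 in rod-like, 33, 84 and 8 in cone-like and 273, 383 and 52 in bipolar-like nuclei. As CPM of all ATAC counts of the class, the 4-week ratio was 0.0671 (0.0406 to 0.106) in rods, 0.122 (0.0489 to 0.271) in cones and 0.137 (0.100 to 0.186) in bipolar cells, and the 2-week ratio 1.08, 1.18 and 0.883. The interval at 4 weeks was below 1 in all 6 classes, with the highest ratio in amacrine-like nuclei at 0.450 (0.284 to 0.684), Müller-like at 0.350 and endothelial-like at 0.395. Over all kept nuclei the peak held 722, 1251 and 195 counts, 7.21-fold lower at 4 weeks. The 2-week ratio was 0.815 (0.743 to 0.894) over all kept nuclei and 0.748 (0.579 to 0.960) in amacrine-like nuclei. It was 0.973 in Müller-like and 1.22 in endothelial-like nuclei.

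Its RNA was lower too. Kept nuclei had 95, 55 and 12 Cyp2r1 UMIs (5.43, 4.66 and 0.718 CPM), a ratio of 0.132 (0.0660 to 0.242), and bipolar-like nuclei 52, 22 and 2. Amacrine-like nuclei, with 19, 7 and 5 UMIs, had a ratio of 1.28. The neighbouring gene Pde3b had bipolar-like UMIs of 72, 33 and 17, a ratio of 0.275, but ratios of 1.04 in rods (3 and 4 UMIs), 0.919 in amacrine-like and 1.22 in Müller-like nuclei and 0.775 over all kept nuclei. The neighbours Psma1 and Copb1 had ratios of 0.920 and 1.07 over all kept nuclei. One library stands behind each value, and a difference between the mice used was not tested.

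The 250 bases before 3 gene starts are shown (RefSeq, GRCm38.p6, which is mm10). Cyp2r1 was taken for this difference and B2m and Irf1 as 2 of the immune genes, each inside its start peak in both libraries. Capitals mark, on the plus or minus strand of the gene, CCAAT in Cyp2r1, GAAANNGAAA (an interferon-stimulated response element) in B2m and TTCNNNGAA (a gamma-activated site) in Irf1. The shares of 32851 listed promoters with each motif in the same 250 bases are 33.8%, 2.98% and 7.02%. A match is a description of letters, not of binding.
Cyp2r1, chr7:114562973-114563222, minus strand: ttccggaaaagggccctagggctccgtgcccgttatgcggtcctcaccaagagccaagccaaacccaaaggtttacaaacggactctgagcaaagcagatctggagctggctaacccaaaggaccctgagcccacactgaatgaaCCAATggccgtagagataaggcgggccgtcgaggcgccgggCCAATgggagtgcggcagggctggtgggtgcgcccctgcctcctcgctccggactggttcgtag
B2m, chr2:122147437-122147686, plus strand: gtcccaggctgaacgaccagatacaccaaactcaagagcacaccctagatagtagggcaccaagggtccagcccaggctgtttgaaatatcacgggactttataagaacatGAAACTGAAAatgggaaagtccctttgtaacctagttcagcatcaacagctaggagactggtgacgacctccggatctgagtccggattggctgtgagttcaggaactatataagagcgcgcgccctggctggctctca
Irf1, the upstream of 2 listed starts, chr11:53769764-53770013, plus strand: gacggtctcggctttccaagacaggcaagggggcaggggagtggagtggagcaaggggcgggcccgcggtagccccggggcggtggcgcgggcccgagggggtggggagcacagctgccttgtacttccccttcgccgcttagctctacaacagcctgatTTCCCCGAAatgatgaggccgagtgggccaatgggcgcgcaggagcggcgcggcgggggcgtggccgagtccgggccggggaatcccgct

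The CCAAT matches of Cyp2r1 begin 105 and 64 bases before its start, the B2m element 139 bases and the Irf1 element 90 bases before theirs. B2m and Irf1 hold CCAAT as well, 53 and 63 bases before the start. The B2m start peak was at 19.2, 31.0 and 19.4 CPM of all ATAC counts in bipolar-like nuclei, a 4-week ratio of 1.01 (0.822 to 1.24). The Irf1 peak was at 3.17, 9.39 and 3.48 in rod-like nuclei, a ratio of 1.10 (0.781 to 1.57), and at 21.1, 31.3 and 13.1 in bipolar-like nuclei, a ratio of 0.621. The B2m peak in rods was at 3.31, 3.08 and 2.03 CPM, below the control at both times. Over all kept nuclei, whose mix of classes differed, 4-week ratios were 0.680 (0.590 to 0.784) for B2m and 0.582 (0.509 to 0.665) for Irf1. In Müller-like nuclei they were 1.44 and 0.968. The Irf1 peak of amacrine-like nuclei held 68, 37 and 3 counts, a ratio of 0.152 (0.0307 to 0.465). Some of these starts were thus below the control at 4 weeks. At 2 weeks the B2m start in bipolar-like nuclei had stood at 1.61 times the control, and the Irf1 start at 2.96 times in rods and 1.48 times in bipolar-like nuclei.

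**Figure D5:**
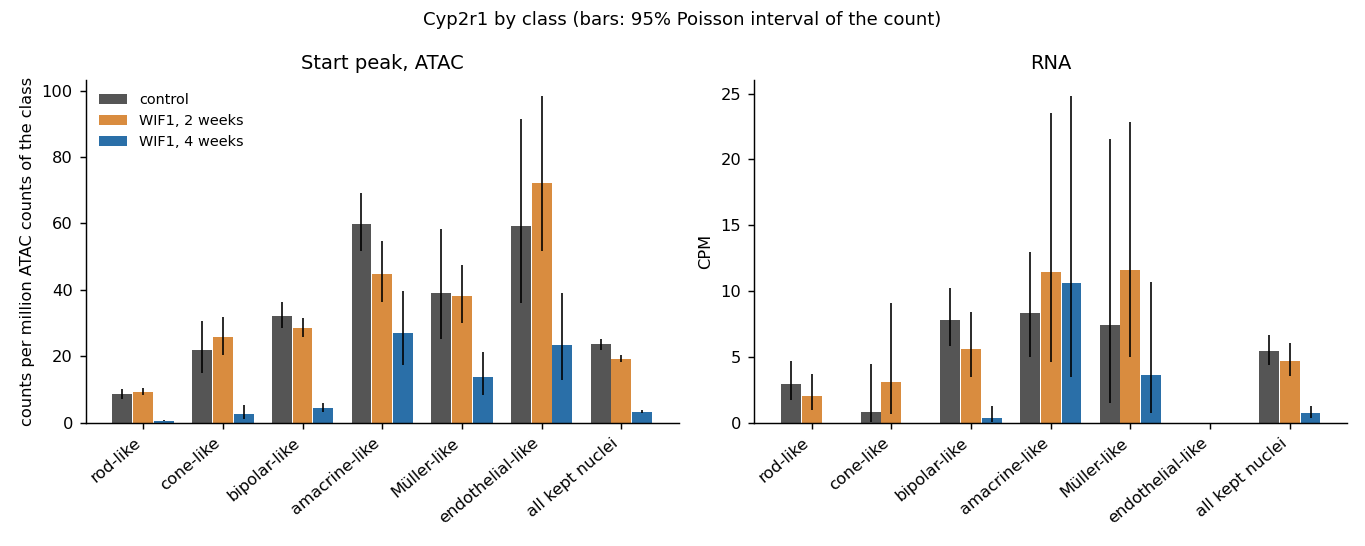
Cyp2r1 in 6 classes and over all kept nuclei: counts in its start peak as CPM of all ATAC counts of the class (left) and RNA in CPM (right), for the control, 2-week and 4-week libraries, with 95% Poisson intervals and no bar where no UMI was found. The 4-week chromatin bars are the lowest of the 3 in every class, and the RNA bar over all kept nuclei is 0.718 against 5.43 CPM in the control.

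In rods some starts remained more open at 4 weeks. On the scale of shared start peaks, Phldb3, a pleckstrin-homology protein gene, was at 14.5, 35.6 and 33.9 CPM (a ratio of 2.35), Kcnj11, the pore of the ATP-sensitive potassium channel, at 13.4, 29.9 and 28.9 CPM (2.16) and Slc8b1, the mitochondrial sodium-calcium exchanger, at 17.7, 70.0 and 37.7 CPM (2.14). The first 2 had kept nearly all of their 2-week level, and Slc8b1 had not. The Antxr2 start held 113, 724 and 363 counts, a ratio of 1.27 (1.02 to 1.58) against 2.08 for its RNA. Tap1, the peptide transporter of MHC class I, was at 5.19, 13.6 and 5.53 CPM in rods, back near the control, and its peak also covers the start of Psmb9.

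In Müller-like nuclei the start of Serping1 held 3, 60 and 32 counts, a ratio of 4.74 (1.48 to 24.2), and that of Ccn2 13, 85 and 62, a ratio of 2.12, both in the direction of their RNA. Starts of interferon genes over all peaks near a start had a median log2 ratio of 0.58 there (11 genes), or 0.33 over matched peaks (13 genes). The same list was at −0.13 in rods and −0.19 in bipolar cells (−0.22 and −0.17 over matched peaks). Starts of blood-retina barrier genes in Müller-like nuclei were at 0.51, from 5 measured of 20 listed. The median over all Müller-like starts was 0.09, or 0.11 over matched peaks. The Clu start was at 61.0, 114.3 and 90.8 CPM, a ratio of 1.49 (0.951 to 2.40).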

How the data were processed

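RNA counts of 32285 genes and ATAC peak counts were used as the authors deposited them, from Cell Ranger ARC 2.0.1 on mm10, with Seurat 5.0.1 and Signac 1.12.0 also named, per the submitters' processing notes. Barcodes with at least 500 UMIs and at most 10% mitochondrial UMIs were kept. Scrublet scores were cut at the expected doublet rate, since its automatic threshold called 0 nuclei in the control and at 4 weeks. That removed 456, 736 and 716 nuclei and left 7227 (control), 9169 (2 weeks) and 8921 (4 weeks). Clustering used scanpy 1.11.5 and leidenalg 0.10.2 (2000 variable genes without immunoglobulin genes, 30 components, 15 neighbours, resolution 1), and 83, 55 and 56 nuclei stayed unnamed. UMIs were summed per class, and ratios of CPM have exact conditional binomial intervals, shares Clopper-Pearson intervals. Counts under 3 were set to 3 for ranking and list medians, so a ratio from a count of 0 is a bound. Gene lists use members with at least 10 UMIs. Named genes were the 8 highest and 8 lowest per class with at least 30 UMIs and 50 CPM, list members that differ at least 2-fold and 10 genes always shown. Cp, Gfap and Stat3 in Müller glia, the library-wide neuronal markers and the starts of Cyp2r1 and Irf1 were chosen after their values were seen. The members and lists were chosen with earlier results of these data known. Scripts were tested on simulated data (scipy 1.17.1, numpy 2.4.6, pandas 2.3.3). Some named genes are not reported here.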

Additional observations from a re-analysis of the deposited data

How the results depend on the processing

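No paired analysis was possible because each condition had 1 library. Over all alternatives, 279 summary values stayed close to the reported ones and the others moved, some of them across the control level (cone and bipolar share ratios, complement medians and the horizontal share, below). Of the named gene and list values 1031 stayed and 57 moved, and 1 changed sign. The causes were not tested. Reported counts of genes higher and lower were 37 and 65 in rods, 77 and 84 in cones, 25 and 110 in bipolar cells, 31 and 872 in amacrine cells, 154 and 136 in Müller glia and 67 and 26 in endothelial cells.

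At 1.5-fold these counts were 242 and 524, 435 and 585, 176 and 497, 263 and 1873, 602 and 433, and 160 and 103. With at least 10 UMIs they were 255 and 272, 336 and 270, 147 and 413, then 182 higher in amacrine cells, 504 and 456 in Müller glia and 445 and 294 in endothelial cells. With at least 100 UMIs they were 4 and 18, 1 and 9, 1 and 17, 5 and 317, 12 and 43, and 6 and 5. With at least 100 CPM on the higher side, a choice added after seeing the data, they were 0 and 12, 0 and 6, 0 and 5, 10 and 121, then 20 higher in Müller glia and 224 and 152 in endothelial cells. In nuclei thinned to 500 UMIs, 42 were lower in rods, 20 and 31 higher and lower in cones, 47 lower in bipolar cells, 10 and 194 in amacrine cells, 41 and 43 in Müller glia and 1 and 4 in endothelial cells. Dividing by the median ratio gave 68 and 554 in amacrine cells. The Ebf3 cluster alone gave 11 and 251, and the Nrg1 cluster 563 lower. With called doublets kept, 71 were lower in Müller glia and the complement median in bipolar cells was 0.4808 instead of −0.14.

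For gene starts, a minimum of 100 counts gave 62 lower in rods, 27 and 13 higher and lower in cones, 40 and 59 in bipolar cells, 2 and 330 in amacrine cells, 93 and 8 in Müller glia and 26 and 1 in endothelial cells. Counts per nucleus in place of CPM gave 2004 and 109, 2149 and 9, 250 and 118, then 147 higher in amacrine cells, 990 and 55 in Müller glia and 2183 and 24 in endothelial cells, so the split of starts into higher and lower turned in rods, cones and bipolar cells. Matched peaks gave 15 higher in rods, 66 in cones, 9 in bipolar cells and 43 in amacrine cells.

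Share ratios by highest marker score were 1.057 for rods, 0.5377 for amacrine, 1.228 for endothelial and 1.034 for horizontal cells, the last against 0. In nuclei of at least 1000 UMIs they were 1.079 for rods, 1.174 for cones and 0.9704 for bipolar cells. Without rods in the total they were 1.267 for cones, 1.064 for bipolar, 0.2869 for amacrine and 2.011 for Müller glia. In Müller glia, lists limited to genes of at least 30 UMIs had medians of 0.4578 for complement (reported −0.23) and 0.4482 for GABA and glycine receptors (reported −0.81), and complement was at 0.4762 without nuclei of over 25% rod peak counts. Depth limits the named genes: 80 of them fell under 30 UMIs once nuclei were thinned.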
